A study of Mus musculus with 9 samples.

Results

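The neutrophil granule genes are 10 genes whose products fill the granules and the cytosol of neutrophils, and they were taken by gene symbol from 19505 genes measured on expression arrays. They fall into 4 classes, with 4 genes of the primary granules (Elane, Mpo, Prtn3 and Ctsg), 3 of the secondary granules (Ngp, Ltf and Camp), 1 of the tertiary granules (Mmp8) and 2 of the cytosol (S100a8 and S100a9). Each gene had 1 probe set on the array. Of the 10 genes, 8 were bright enough to be tested, and Ctsg and Camp were dim, with mean levels over all arrays below 5.66 on the log2 scale, the median of all probe-set means.

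The cells were macrophages grown from bone marrow of wild-type C57BL/6 mice, in 10% serum with macrophage colony-stimulating factor (M-CSF) for 7 days, and all of them then received 20 ng/ml interleukin 4 (IL-4) for 24 h. The tested factor was LCN2 (lipocalin 2), an iron-siderophore-binding protein that neutrophils also store in their secondary granules. The 3 groups of 3 arrays were LCN2 from day 0 (150 ng/ml recombinant mouse protein), LCN2 on day 7 (added with IL-4, with no dose stated) and vehicle. The M-CSF concentration is 10 ng/ml in the growth protocol and 20 ng/ml in the series text. Every group has an array numbered 1, an array numbered 2 and an array numbered 3 in its titles, and what the number stands for is not stated. Separate mice or cultures are not named for the arrays within a group. P-values thus reflect the spread among these samples alone, and that spread may be technical. Arrays of the same number may also share a source, so the 3 arrays numbered 1 may not be independent of each other. Contrasts by number count them as separate, and their p-values would then reflect the spread within numbers alone.

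Granule proteins are made in waves while a neutrophil matures in the bone marrow. Promyelocytes make the primary (azurophil) granule proteins, myelocytes and metamyelocytes make the secondary (specific) granule proteins, later stages make the tertiary (gelatinase) granule proteins, and S100a8 and S100a9 build up in the cytosol from the myelocyte stage on. Primary and secondary granule proteins are not typical products of mature macrophages. Cultures of marrow in M-CSF start from cells of many kinds, among them granulocyte precursors. In bulk RNA, fewer cells of a type and less RNA per cell cannot be told apart.

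Of 10 measured markers of the labelled cell type, 8 were bright enough to be tested and 2, Cd163 and Timd4, were dim. Adgre1, a macrophage surface receptor, lay between 11.62 and 11.97 and Csf1r (the M-CSF receptor) between 11.97 and 12.16 on all 9 arrays. Other markers of the list were less even. Cd14 lay between 7.69 and 9.45, Fcgr1 between 7.29 and 8.55 and Maf between 7.41 and 8.86. Of the 8 tested, 2 were called lower and 3 higher on the arrays numbered 1. Array medians were 5.60 to 5.69 on the log2 scale. The upper quartiles of the arrays numbered 1 were 7.83 to 7.85, against 7.87 to 7.99 on the other 6 arrays. Results are given by group and by number, and all levels and differences are on the log2 scale.

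The secondary granule and cytosolic genes had the largest mean differences by array number, and differences between classes were not tested. Ngp, Ltf, S100a8, S100a9 and the primary granule genes Elane and Mpo were lower on the arrays numbered 1 than on those numbered 2 and 3, by 2.08-fold to 3.91-fold (n = 3 against 6 arrays). That is 6 of the 8 members tested, where limma called 22.1% of all 10042 genes lower and 11% higher in the same contrast. By class, 2 of 3 tested primary, 2 of 2 tested secondary, 0 of 1 tertiary and 2 of 2 cytosolic members were called lower, and 0 members were called higher. The median difference over all 10 members was -1.12, and that over all tested genes was -0.06. The mean difference was -0.73 for the primary, -1.38 for the secondary and -1.47 for the cytosolic members, and 0.26 for Mmp8. These means include the dim genes Ctsg (-0.23) and Camp (-0.61), which the counts of called members leave out. The tested secondary members, Ngp (-1.97) and Ltf (-1.56), both lay below the cytosolic mean. Cell cycle genes moved with the same contrast, with 13 of 15 lower on the arrays numbered 1 and a median of -0.90, and their part in the members' differences was not tested.

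**Figure D1:**
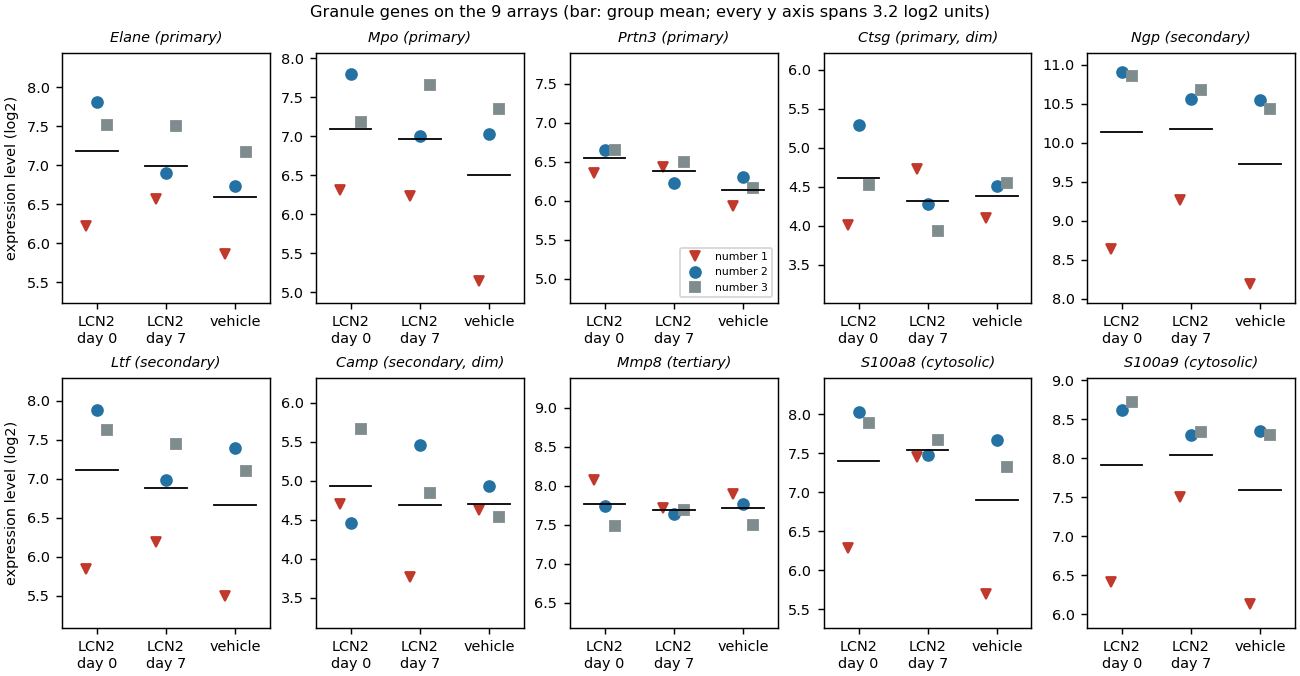
Log2 expression level (vertical axes, each spanning the same number of log2 units) of the 10 granule genes in LCN2 from day 0, LCN2 on day 7 and vehicle, with 1 point per array, shaped by the number in its title, and a bar at the group mean. The arrays numbered 1 (triangles) lie below the others for Elane, Mpo, Ngp, Ltf and S100a9, and not for Prtn3 or Mmp8.

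Among the primary granule genes, Elane encodes neutrophil elastase, a serine protease. It measured 6.22 with LCN2 from day 0, 6.57 with LCN2 on day 7 and 5.86 with vehicle on the arrays numbered 1. On the arrays numbered 2 and 3 it measured 7.81 and 7.51 with LCN2 from day 0, 6.90 and 7.50 with LCN2 on day 7, and 6.73 and 7.16 with vehicle. All 3 arrays numbered 1 lay below the other 6. The fitted difference was -1.05 ± 0.18 (SE), with an adjusted p of 0.0034 in limma.

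Mpo encodes myeloperoxidase, which makes hypochlorous acid from hydrogen peroxide. Its levels on the arrays numbered 1 were 6.32 with LCN2 from day 0, 6.24 with LCN2 on day 7 and 5.14 with vehicle. On the arrays numbered 2 and 3 its levels were 7.79 and 7.19 with LCN2 from day 0, 7.01 and 7.65 with LCN2 on day 7, and 7.03 and 7.34 with vehicle. Again the 3 arrays numbered 1 were the lowest of the 9, and vehicle array 1 was the lowest of all. The difference was -1.44 ± 0.23 (SE, limma adjusted p = 0.0027), the largest of the primary members.

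Prtn3, which encodes proteinase 3, a serine protease stored beside elastase, was not called. It measured 6.36, 6.43 and 5.94 on the arrays numbered 1 of LCN2 from day 0, LCN2 on day 7 and vehicle. It measured 6.65 and 6.65 with LCN2 from day 0, 6.23 and 6.50 with LCN2 on day 7, and 6.31 and 6.17 with vehicle on the arrays numbered 2 and 3. The ranges by number overlapped, and the difference of -0.18 ± 0.11 (SE) was not called (limma adjusted p = 0.231). Ctsg, which encodes cathepsin G, another serine protease of these granules, was dim on every array, at 4.01 to 4.72 on those numbered 1 and 3.93 to 5.29 on those numbered 2 and 3, with a difference of -0.23 ± 0.24 (SE) in the fit that kept dim genes.

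Elane and Prtn3 are neighbours on chromosome 10, with 3137 bases between the end of Prtn3 and the start of Elane (RefSeq, assembly GRCm38.p6: Prtn3 at chr10:79879667-79883174, Elane at chr10:79886312-79888216, both on the plus strand). Their promoter windows, 250 bases before to 50 after the start of the gene in RefSeq, are shown because Elane was called by array number and its neighbour was not. Whether the differences of these genes differ from each other was not tested. Capitals mark matches on either strand to GAGGAA, a core bound by PU.1, and to TTNNGNAA, a loose form of the C/EBP site. No match to one motif overlapped a match to the other in the 10 windows.
Elane, chr10:79886062-79886361, plus strand: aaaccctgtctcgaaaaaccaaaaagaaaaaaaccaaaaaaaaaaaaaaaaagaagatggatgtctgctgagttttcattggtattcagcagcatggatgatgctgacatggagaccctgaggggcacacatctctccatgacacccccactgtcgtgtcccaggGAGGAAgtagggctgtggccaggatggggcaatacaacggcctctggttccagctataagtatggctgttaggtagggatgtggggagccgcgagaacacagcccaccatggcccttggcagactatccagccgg
Prtn3, chr10:79879417-79879716, plus strand: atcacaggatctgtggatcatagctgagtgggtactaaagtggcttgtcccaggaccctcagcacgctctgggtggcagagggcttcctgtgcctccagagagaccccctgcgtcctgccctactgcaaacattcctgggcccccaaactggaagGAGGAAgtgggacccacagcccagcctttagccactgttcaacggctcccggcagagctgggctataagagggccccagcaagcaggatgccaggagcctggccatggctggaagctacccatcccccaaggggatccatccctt
GAGGAA lies 85 bases before the start of Elane and 95 bases before that of Prtn3, and TTNNGNAA is in neither window. Over the class, GAGGAA was in 4 of 4 primary windows and TTNNGNAA in 0 of 4. Over the other classes, TTNNGNAA was in 2 of 3 secondary windows, in the tertiary window and in 2 of 2 cytosolic windows, and GAGGAA was in 1 of 3 secondary, the tertiary and 1 of 2 cytosolic windows. Of all 32851 promoter windows of the same length in the table, 40.68% hold TTNNGNAA and 28.28% hold GAGGAA. These counts describe letters in the windows and no binding was measured.

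Of the secondary granule genes, Ngp encodes neutrophilic granule protein, a cystatin-like protein, and it differed by number more than any other member. The arrays numbered 1 gave 8.64 with LCN2 from day 0, 9.27 with LCN2 on day 7 and 8.19 with vehicle. On those numbered 2 and 3 it measured 10.91 and 10.85 with LCN2 from day 0, 10.57 and 10.68 with LCN2 on day 7, and 10.55 and 10.44 with vehicle. The lowest array numbered 2 or 3 stood above the highest numbered 1 by more than the range of the 6 arrays numbered 2 and 3. Ngp was 3.91-fold lower on the arrays numbered 1 (-1.97 ± 0.17 SE, limma adjusted p = 0.000218), which placed it 11th from the lowest of 10042 tested genes.

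Ltf encodes lactoferrin, an iron-binding protein of secretions and secondary granules. It measured 5.85, 6.20 and 5.50 on the arrays numbered 1 of LCN2 from day 0, LCN2 on day 7 and vehicle. On the other arrays it measured 7.88 and 7.63 with LCN2 from day 0, 6.99 and 7.45 with LCN2 on day 7, and 7.39 and 7.10 with vehicle. The arrays numbered 1 did not overlap with the others, and the difference was -1.56 ± 0.18 (SE, limma adjusted p = 0.000746). Camp, which encodes the cathelicidin antimicrobial peptide, was dim and scattered. It measured 4.70, 3.77 and 4.63 on the arrays numbered 1 of LCN2 from day 0, LCN2 on day 7 and vehicle, against 4.45 to 5.66 on the others, and its difference was -0.61 ± 0.31 (SE, limma adjusted p = 0.239 among all genes). Without the array numbered 2 of LCN2 from day 0 it was -0.86 with an adjusted p of 0.0433, and without the array numbered 1 of LCN2 on day 7 it was -0.23 with an adjusted p of 0.752.

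Mmp8, the tertiary member, encodes neutrophil collagenase. Its arrays numbered 1 gave 8.07 with LCN2 from day 0, 7.72 with LCN2 on day 7 and 7.89 with vehicle. Those numbered 2 and 3 gave 7.74 and 7.49 with LCN2 from day 0, 7.64 and 7.69 with LCN2 on day 7, and 7.77 and 7.50 with vehicle. The ranges overlapped, since array 1 of LCN2 on day 7 lay below array 2 of both other groups. Its difference of 0.26 ± 0.10 (SE, limma adjusted p = 0.084) was the only one of the 10 above 0. It was called higher after the arrays were quantile normalized again (0.35, adjusted p = 0.0243) and without the array numbered 3 of LCN2 on day 7 (0.32, adjusted p = 0.0354). Without the array numbered 1 of LCN2 from day 0 it was 0.16, with an adjusted p of 0.371.

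The cytosolic genes S100a8 and S100a9 encode the subunits of calprotectin, a calcium- and zinc-binding protein that monocytes make too. S100a9 measured 6.41, 7.50 and 6.13 on the arrays numbered 1 of LCN2 from day 0, LCN2 on day 7 and vehicle. On those numbered 2 and 3 it measured 8.62 and 8.72 with LCN2 from day 0, 8.30 and 8.34 with LCN2 on day 7, and 8.35 and 8.29 with vehicle. The arrays numbered 1 lay below all others, and the difference was -1.75 ± 0.24 (SE, limma adjusted p = 0.00145).

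S100a8 measured 6.29 with LCN2 from day 0, 7.46 with LCN2 on day 7 and 5.70 with vehicle on the arrays numbered 1. On the arrays numbered 2 and 3 it measured 8.03 and 7.89 with LCN2 from day 0, 7.48 and 7.67 with LCN2 on day 7, and 7.67 and 7.33 with vehicle. Array 1 of LCN2 on day 7 thus lay among the arrays numbered 2 and 3, which no other called member showed. The difference of S100a8 by number was -1.19 ± 0.28 (SE, limma adjusted p = 0.0138). The call was lost without vehicle array 1 (-0.89, adjusted p = 0.0974) or without array 1 of LCN2 from day 0 (-0.96, adjusted p = 0.0934), and the adjusted p over its alternatives ran from 0.000598 to 0.0974. These genes lie 22595 bases apart on chromosome 3 (S100a8 at chr3:90669071-90670034, S100a9 at chr3:90692630-90695721), and the secondary granule genes Camp, Ngp and Ltf all lie on chromosome 9.

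In all, 5 of the 10 members (Elane, Mpo, Ngp, Ltf and S100a9) had every array numbered 1 below every other array, and 0 had every one above. Over all tested genes the shares were 23.6% below and 11.8% above. In number 2 minus number 3, limma called 0 of the 8 tested members and 0% of all genes, with 310 genes at an unadjusted p under 0.05. The members' differences there lay between -0.24 (Elane) and 0.36 (Ctsg).

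**Figure D2:**
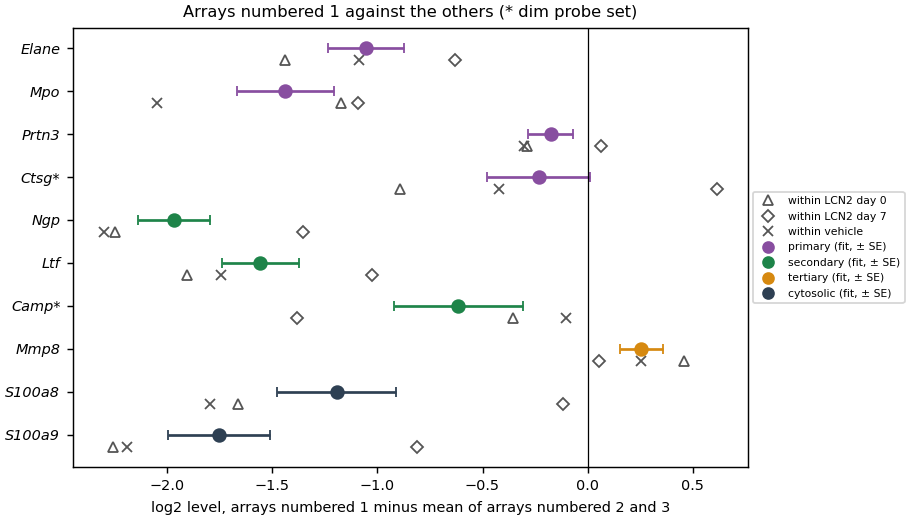
Log2 difference of the arrays numbered 1 minus those numbered 2 and 3 (horizontal axis) for each granule gene, as the fitted value with its SE (filled circles, coloured by class) and within LCN2 from day 0 (triangles), LCN2 on day 7 (diamonds) and vehicle (crosses). Secondary and cytosolic members reach -1.97 and -1.75, Prtn3 lies at -0.18 and Mmp8 at 0.26.

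For all 6 called members the gap between number 1 and the other numbers was smallest in size with LCN2 on day 7. For S100a8 it was -1.66 within LCN2 from day 0, -0.12 within LCN2 on day 7 and -1.80 within vehicle. For S100a9 it was -2.26, -0.81 and -2.19 in the same order of groups, and for Ngp it was -2.25, -1.35 and -2.30. Elane (-1.44, -0.63 and -1.09) and Ltf (-1.90, -1.02 and -1.74) followed, while Mpo had like gaps in both LCN2 groups (-1.17 and -1.09) and -2.05 with vehicle. Each gap rests on 1 array numbered 1.

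A test of whether the gaps differ between groups was added after these values were seen, as an interaction in limma over all genes. For LCN2 on day 7 against vehicle, S100a8 differed by 1.68 ± 0.26 (SE) and S100a9 by 1.38 ± 0.19. Neither passed (limma adjusted p = 0.998 for both), 0 of 8 members and 0% of genes were called, and 398 genes had an unadjusted p under 0.05. For LCN2 on day 7 against LCN2 from day 0 the lowest adjusted p of a member was 0.285, for S100a9 (1.45 ± 0.19), again with 0% of genes called and 669 at an unadjusted p under 0.05. For LCN2 from day 0 against vehicle, 0 members and 0% of genes were called, with 363 genes at an unadjusted p under 0.05.

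Profiles over the 9 arrays, each centred on the gene's own mean, were closest for Ngp and S100a9, a secondary and a cytosolic member, with a root mean square difference of 0.16. Ngp and Ltf differed by 0.26, S100a8 and S100a9 by 0.30 and Elane and Mpo by 0.31, whereas Prtn3 and Elane differed by 0.46. The farthest pair was Ngp and Mmp8, at 1.10. Likeness therefore crossed the classes, and these values describe 9 arrays that share their numbers. The promoter windows of Ngp and S100a9 are shown as those of the closest pair, from the same RefSeq table and with the same capitals.
Ngp, chr9:110419558-110419857, plus strand: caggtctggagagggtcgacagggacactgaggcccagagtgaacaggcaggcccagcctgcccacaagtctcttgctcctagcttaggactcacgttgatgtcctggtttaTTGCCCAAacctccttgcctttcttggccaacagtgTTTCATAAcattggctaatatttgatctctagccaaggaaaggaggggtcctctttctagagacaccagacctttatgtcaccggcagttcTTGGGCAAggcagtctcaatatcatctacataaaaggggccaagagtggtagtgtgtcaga
S100a9, chr3:90695672-90695971, minus strand: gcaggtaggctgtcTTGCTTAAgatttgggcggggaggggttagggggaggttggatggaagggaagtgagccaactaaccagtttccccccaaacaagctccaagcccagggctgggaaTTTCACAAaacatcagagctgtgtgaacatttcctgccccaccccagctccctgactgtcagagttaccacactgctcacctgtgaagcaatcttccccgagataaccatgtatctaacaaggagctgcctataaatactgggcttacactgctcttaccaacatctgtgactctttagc
The Ngp window holds TTNNGNAA at 3 places and that of S100a9 at 2, and GAGGAA is in neither.

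**Figure D3:**
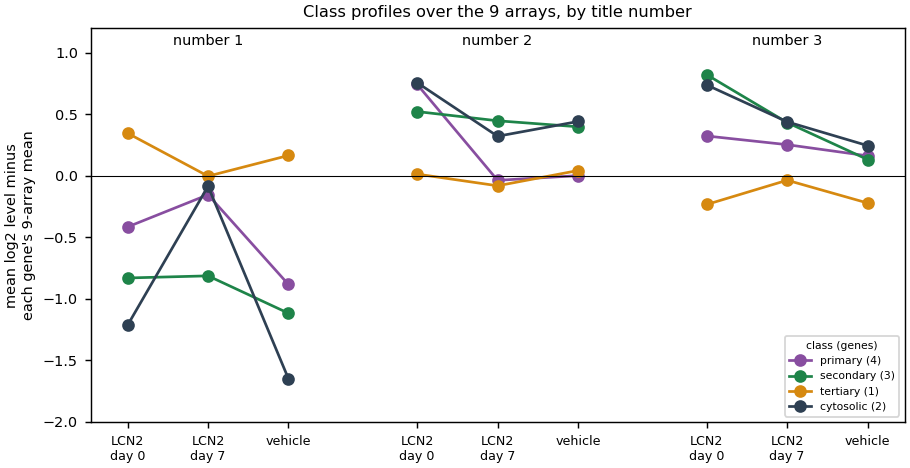
Mean of the centred log2 levels of each class (vertical axis, each gene minus its mean over the 9 arrays) in LCN2 from day 0, LCN2 on day 7 and vehicle, split by title number, with 1 point per array and lines joining arrays of a number. Within number 1 the cytosolic mean is -1.21, -0.08 and -1.65 in these groups and the secondary mean is -0.83, -0.81 and -1.12. The tertiary line stays between -0.23 and 0.35 on all arrays. The dim genes Ctsg and Camp are included in their classes.

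Averaged by class on the arrays numbered 1, the secondary members lay at -0.83 with LCN2 from day 0, -0.81 with LCN2 on day 7 and -1.12 with vehicle, relative to their means over all arrays. The cytosolic members lay at -1.21, -0.08 and -1.65 in the same groups, and the primary members at -0.41, -0.15 and -0.88. LCN2 on day 7 was thus the group in which array 1 came closest to the mean in each of these classes, though by little for the secondary members. These means include the dim genes Ctsg and Camp. Camp had its lowest level on array 1 of LCN2 on day 7 (3.77). Ngp (9.27) and Ltf (6.20) were higher on that array than on the other arrays numbered 1.

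LCN2 from day 0 was set against vehicle to see what LCN2 did when present throughout differentiation. All 10 members had a higher mean with LCN2 from day 0, but none passed the test. Limma called 0 of the 8 tested members and 0% of all genes, with 142 genes at an unadjusted p under 0.05. The members' median difference was 0.41 and that of all tested genes was -0.01. Elane (0.60 ± 0.46 SE) and Mpo (0.60 ± 0.61) differed most and ranked 6th and 7th from the highest of 10042 genes, with a mean Elane level of 7.18 ± 0.84 with LCN2 from day 0 and 6.58 ± 0.66 with vehicle (SD, n = 3 each). The SE of these values carries the spread between array numbers.

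The mean level of Prtn3 was 6.55 ± 0.17 with LCN2 from day 0 and 6.14 ± 0.19 with vehicle (SD, n = 3 each), and every array with LCN2 from day 0 stood above every vehicle array. These groups did not overlap, in either direction, for 5.49% of tested genes. The difference of Prtn3 was 0.41 ± 0.14 (SE), with an adjusted p of 0.999 in limma. It was 0.42, 0.34 and 0.48 between the arrays numbered 1, 2 and 3. No other member had groups that did not overlap.

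Ngp differed by 0.41 ± 0.77 (SE), with means of 10.13 ± 1.30 with LCN2 from day 0 and 9.73 ± 1.33 with vehicle (SD, n = 3 each). Between arrays of the same number it was higher with LCN2 from day 0 by 0.44, 0.36 and 0.42. Ltf was higher by 0.34, 0.49 and 0.52, S100a8 by 0.59, 0.36 and 0.56, and S100a9 by 0.28, 0.27 and 0.43, over the numbers 1, 2 and 3. Elane completed this set of 6 members that were higher in all 3 pairs, with 0.36, 1.08 and 0.35, where 11.8% of tested genes were higher in all 3.

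The other members were not higher in every pair. Mpo differed by 1.18, 0.77 and -0.16 over the numbers 1, 2 and 3, Ctsg by -0.09, 0.78 and -0.02, and Camp by 0.07, -0.48 and 1.13. Mmp8 differed by 0.18, -0.03 and -0.01. By class, the mean difference was 0.46 for the primary, 0.37 for the secondary and 0.41 for the cytosolic members, and 0.05 for Mmp8.

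Vehicle array 1 bears on these values. A fit without vehicle array 1 kept array 1 of LCN2 from day 0, so the groups held unequal shares of number 1. In that fit the difference between LCN2 from day 0 and vehicle was -0.09 for Mpo, -0.36 for Ngp, -0.13 for Ltf, -0.10 for S100a8 and -0.40 for S100a9. It stayed above 0 for Elane (0.23) and Prtn3 (0.31). The class means were then 0.14 for the primary, -0.09 for the secondary and -0.25 for the cytosolic members. On the 6 arrays numbered 2 and 3 alone, Mmp8 (-0.02) was the only member whose difference turned below 0.

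**Figure D4:**
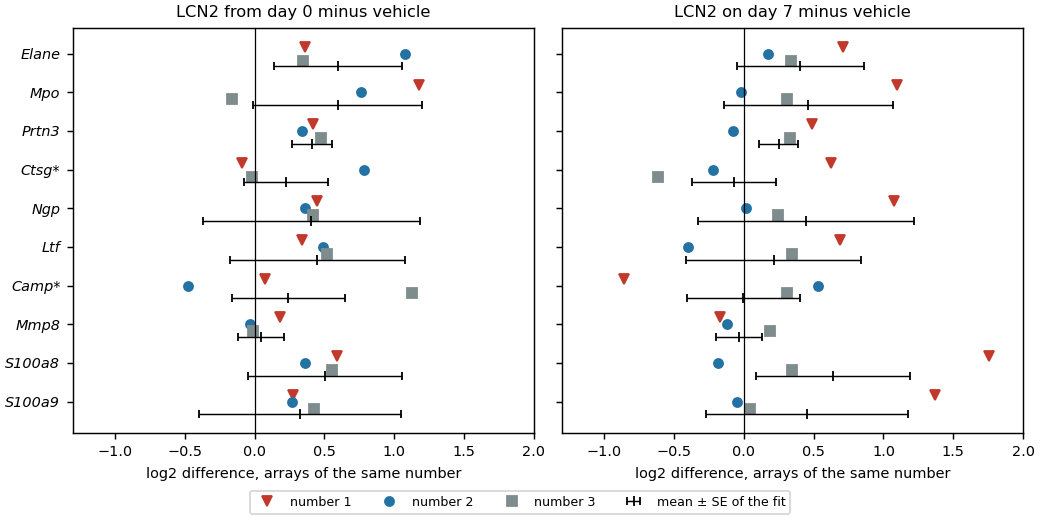
Log2 difference between arrays of the same title number (horizontal axes) for each granule gene, LCN2 from day 0 minus vehicle on the left and LCN2 on day 7 minus vehicle on the right, with the fitted mean and its SE below each set of points; * marks dim genes. On the left the 3 points of Prtn3, Ngp, Ltf, S100a8, S100a9 and Elane all lie above 0. On the right the arrays numbered 1 lie farthest out for S100a8 (1.76), S100a9, Ngp and Mpo.

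LCN2 on day 7 was set against the same vehicle arrays to see what LCN2 did to cells already differentiated. Here too limma called 0 of the 8 tested members and 0% of genes, with 70 genes at an unadjusted p under 0.05. S100a8 had the largest member difference, 0.64 ± 0.55 (SE), 4th from the highest of all tested genes. Its mean level was 7.54 ± 0.12 with LCN2 on day 7 and 6.90 ± 1.05 with vehicle (SD, n = 3 each). By number the difference was 1.76, -0.19 and 0.34, so array 1 supplied most of it.

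S100a9 (1.37, -0.05 and 0.04 over the numbers 1, 2 and 3), Ngp (1.08, 0.02 and 0.24) and Mpo (1.10, -0.02 and 0.31) had the same form. Ltf differed by 0.69, -0.40 and 0.34, and Prtn3 by 0.49, -0.08 and 0.33. Elane (0.71, 0.17 and 0.33) and Ngp were the 2 members higher in all 3 pairs, where 11.4% of tested genes were. In 0 of 10 members did the groups not overlap, against 3.17% of tested genes. Class means were 0.26 for the primary, 0.22 for the secondary and 0.55 for the cytosolic members, and -0.04 for Mmp8.

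Without vehicle array 1, but with array 1 of LCN2 on day 7 kept, the groups again held unequal shares of number 1. The difference between LCN2 on day 7 and vehicle was then -0.22 for Mpo, -0.32 for Ngp, -0.37 for Ltf, -0.28 for S100a9 and 0.04 for S100a8. The class means were then -0.06 for the primary, -0.24 for the secondary and -0.12 for the cytosolic members, and 0.05 for Mmp8. The dim members Ctsg (-0.07 ± 0.30 SE) and Camp (-0.01 ± 0.40) lay near 0 with all arrays.

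Set directly against each other, LCN2 from day 0 and LCN2 on day 7 gave 0 called members and 0% of genes called in limma, with 177 genes at an unadjusted p under 0.05. The primary members differed by a mean of 0.20, the secondary by 0.15, the cytosolic by -0.13 and Mmp8 by 0.08. In 0 members were all 3 pairs higher, against 8% of tested genes, and 0 members had groups that did not overlap, against 5%. S100a8 averaged 7.40 ± 0.96 with LCN2 from day 0 and 7.54 ± 0.12 with LCN2 on day 7 (SD, n = 3 each). The larger SD goes with array 1 of LCN2 from day 0, at 6.29 against 8.03 and 7.89 on arrays 2 and 3 of that group.

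Other genes of the neutrophil programme were described from lists, beside the members, on the arrays numbered 1 against those numbered 2 and 3. Of 11 other secondary granule genes, 6 were tested, 1 fell and 4 rose. The gene that fell was Lcn2 itself, at 8.78 ± 0.51 on the arrays numbered 1 (SD, n = 3) and 10.55 ± 0.19 on the others (SD, n = 6), a difference of -1.78 ± 0.17 (SE, limma adjusted p = 0.000282). Among those that rose was Chil3, a chitinase-like protein that IL-4 also induces in macrophages, by 1.51 ± 0.09.

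Of 9 tertiary granule and secretory vesicle genes, 5 were tested, 2 rose and 0 fell. Mmp9, which encodes gelatinase B and is made by macrophages too, rose by 2.21 ± 0.27 (SE) and Slc11a1, a metal ion transporter, by 0.56 ± 0.10. Of 8 other primary granule genes, 5 were tested and 2 rose, the lysozyme gene Lyz2 by 0.47 ± 0.07 and the tetraspanin gene Cd63 by 0.41 ± 0.09, both of which macrophages express. Of 8 other neutrophil cytosol genes only Anxa1, which macrophages also express, was tested, and it rose by 0.26 ± 0.07. In the fit that kept dim genes, Retnlg (-1.32 ± 0.18, limma adjusted p = 0.00175), Wfdc21 (-0.62 ± 0.15, 0.0247) and Padi4 (-0.59 ± 0.15, 0.0284) of this list fell, as did the secondary granule gene Cd177 (-0.46 ± 0.13, 0.0445).

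Of 10 neutrophil surface markers, 5 were tested, 1 fell and 1 rose. Cxcr2, the receptor for neutrophil-attracting chemokines, fell by 0.76 ± 0.12 (SE), Csf3r, the receptor for granulocyte colony-stimulating factor, rose by 0.28 ± 0.09 (limma adjusted p = 0.0473), and Trem3 differed by -0.38 ± 0.18 without passing. The dim marker Mrgpra2b fell by 0.61 ± 0.09 in the fit that kept dim genes. Of 13 transcription factors of granulocyte development, 10 were tested, 3 fell and 3 rose. Cebpb rose by 0.79 ± 0.10 and Klf4, a factor of monocyte differentiation, fell by 0.63 ± 0.11, while Cebpe, which drives secondary granule genes in mice, was dim at 4.42 to 5.22 on all arrays. No gene of these lists was called in either comparison of LCN2 with vehicle, where Gfi1, a repressor needed for neutrophil development, differed most among the factors with LCN2 from day 0 (0.36 ± 0.22 SE).

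**Figure D5:**
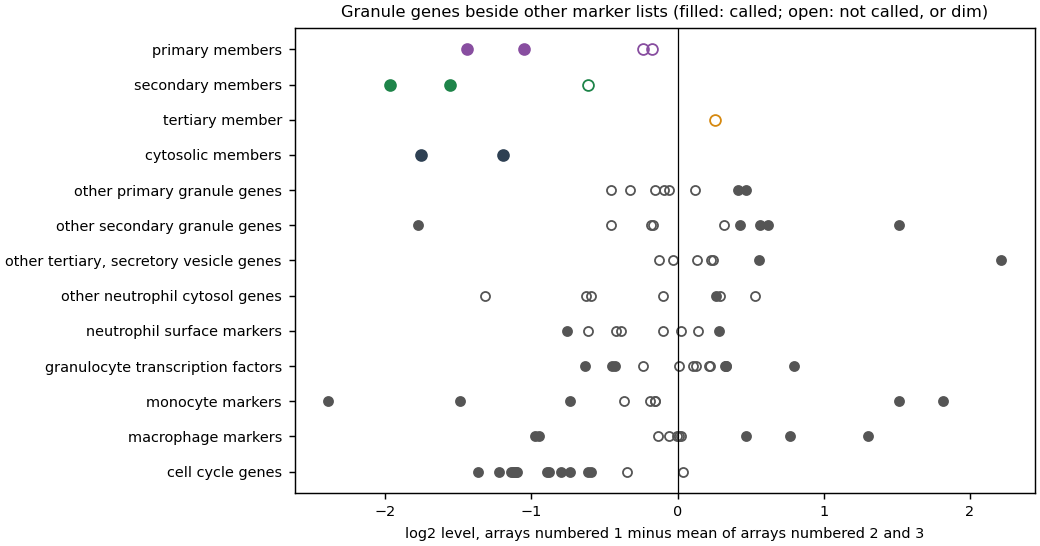
Log2 difference of the arrays numbered 1 minus those numbered 2 and 3 (horizontal axis) for the granule genes by class and for genes of the other lists, with 1 circle per gene, filled where limma called it. Called members lie between -1.97 and -1.05, cell cycle genes are mostly below 0, and the other granule lists lie on both sides of 0 with Lcn2 at -1.78 and Mmp9 at 2.21.

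Markers of other cell types and of proliferation moved with the array number too. Of 15 tested cell cycle genes, 13 fell and 0 rose on the arrays numbered 1. Their mean level per array was 8.09 to 8.67 there, against 9.01 to 9.37 on the others. Of 6 tested monocyte markers, 3 fell and 2 rose. Ccr2, a chemokine receptor, fell by 2.39 ± 0.08 (SE) and Fn1 (fibronectin) rose by 1.82 ± 0.31, and the mean level of the list was 6.42 to 6.77 against 6.67 to 6.91. Of 3 tested progenitor markers, 2 fell and 1 rose. Cd34, a marker of blood progenitors, fell by 2.14 ± 0.13 and Gata2 rose by 0.98 ± 0.11. Of 8 tested macrophage markers, 2 fell and 3 rose, among them Cd14 by 1.30 ± 0.09, and the mean level of the list was 8.98 to 9.09 against 8.96 to 9.06. The other neutrophil cytosol genes, 6 of 7 of them dim, had a mean level of 5.38 to 5.42 on the arrays numbered 1 and 5.53 to 5.75 on the others, and the neutrophil surface markers of 6.54 to 6.67 and 6.70 to 6.86. Eosinophil genes (2 tested), mast cell and basophil genes (2 tested) and T and NK cell genes (1 tested) had 0 calls in either direction among tested genes. In the fit that kept dim genes, the eosinophil granule gene Prg2 fell by 1.08 ± 0.11 (limma adjusted p = 0.00037), and Ncr1, a receptor of NK cells, and Gzma, a granzyme, rose by 0.59 ± 0.09 and 0.80 ± 0.20 (0.00354 and 0.0262). The 3 erythroid and 7 B cell genes measured were all dim. The part that proliferation or other cell types have in the members' differences was not tested.

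All tested genes other than the members were ranked by how closely their centred profiles followed each class over the 9 arrays. The mean cytosolic profile was nearest to Ly6c1 (root mean square difference 0.15), Lcn2 (0.24), the mitotic genes Spag5 and Aspm (0.25 each) and Ly6c2 (0.25). Ly6c1 averaged 6.43 on the arrays numbered 1 and 8.05 on the others, and Ly6c2, a surface marker of inflammatory monocytes, averaged 6.58 and 8.07. Ly6c2 also differed by 0.70 ± 0.60 (SE) with LCN2 from day 0 and by 0.67 with LCN2 on day 7, neither called.

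The primary profile was nearest to Vps13c (0.13), Sh3bp5 (0.13), Cenpk (0.14), Hmgb3 (0.14) and the cell cycle transcription factor E2f2 (0.15). The secondary profile was nearest to Fgd4 (0.16), Smpdl3b (0.16), Rasgrp1 (0.17), Hdac9 (0.17) and Niban1 (0.18). Mmp8 was nearest to Klf13 (0.05), Ncstn (0.05), Ago4 (0.05), Tmem179b (0.06) and Pigs (0.06). These distances describe 9 arrays and were not tested.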

How the data were processed

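The table deposited by the authors holds log2 expression levels of 22203 probe sets on 9 arrays, with 0 missing values. Per the submitters' processing notes these log2 levels come from RMA in oligo, an R package; RMA corrects background, makes the arrays' distributions alike and summarises probes. Their versions and the array's probe design were not given in the sources used here. RMA shrinks array-wide shifts, so a change that most genes share would be lost. The levels were used as deposited, 1 probe set a gene (the highest mean over all arrays). Of the probe sets, 19572 carried 1 gene symbol, 0 several and 2631 none. All 19505 genes were matched to RefSeq (GRCm38.p6) by Entrez identifier, which changed 0 symbols. Arrays carry no counts, so their number limits the precision.

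Genes below the median probe-set mean of 5.66 were left out as dim, which kept 10042. Limma 3.58.1 in R 4.3.3 (lmFit and eBayes, no trend) was fitted to all 9 arrays with 1 mean per group, and with the title number added for contrasts of numbers. P-values were adjusted by Benjamini-Hochberg over the genes tested and called under 0.05. Ctsg and Camp come from the same fit without the filter. Class means and class profiles include both. The scripts were tested on simulated data. Members, lists and tests were chosen with earlier results of these data known. All 10 members are named. Of each list, up to 2 tested genes of largest difference by array number and up to 2 for LCN2 from day 0 are named. Not each of these is printed. Adgre1 and Csf1r were named outside this rule, as markers of the labelled cell type. Cebpe, Csf3r and the dim list genes were named after their values were seen. For each class the 5 nearest profiles are named. Listed genes without a row of their own were not used here.

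The pairing of arrays by number comes from the titles. Deviations from group means correlated at 0.16 to 0.82 over the 9 pairs of same-number arrays, each above 0.1. With 3 arrays per group, a gap of number 1 alone can give such values, and arrays of unlike numbers were not correlated. The correlations thus cannot decide whether the arrays numbered 2 and 3 are paired. Alternatives were the dim filter, arrays shifted to a common median, an intensity trend, array weights, the number as a block or a random block, pairwise fits and leaving out each array. A renewed quantile normalization and the 6 arrays numbered 2 and 3 alone were added after seeing the data.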

Additional observations from a re-analysis of the deposited data

How the results depend on the processing

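With the title number as a block, limma called 0 of the 8 tested members and 0% of genes in each LCN2 comparison, so the block changed no call, and the numbers of genes at an unadjusted p under 0.05 were 497, 259 and 539 for LCN2 from day 0 minus vehicle, LCN2 on day 7 minus vehicle and LCN2 from day 0 minus LCN2 on day 7. The block cut the SE of Ngp for LCN2 from day 0 minus vehicle to 0.20, against 0.77 without it, and gave Prtn3 an adjusted p of 0.961. The counts of members called in the LCN2 comparisons were 0 under every alternative run. The count for number 1, taken in either direction, was 6, and 5 to 7 when each array was left out in turn. S100a8 was lost without array 1 of LCN2 from day 0 or of vehicle. The count of 7 was without array 3 of LCN2 on day 7, where Mmp8 was called higher (0.32). Mmp8 was also called higher after renewed quantile normalization (0.35). Camp, which is dim and outside these counts, passed as lower without array 2 of LCN2 from day 0.

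Some member differences, none of them called, changed sign, and the cause was not tested. With array weights, whose estimation stopped before it converged, LCN2 from day 0 minus vehicle was -0.066 for Mmp8, LCN2 on day 7 minus vehicle was -0.15 for Ngp, -0.33 for Ltf, -0.042 for S100a8 and -0.15 for S100a9, and LCN2 from day 0 minus LCN2 on day 7 was 0.34 for Ngp, 0.26 for S100a8 and 0.30 for S100a9. With the same weights, number 2 minus number 3 was 0.089 for Prtn3, 0.115 for Camp and 0.091 for S100a9, and 0.16 for the mean of the secondary members. The class means of LCN2 on day 7 minus vehicle were -0.15 for the secondary and 0.037 for the cytosolic members with array weights. On the arrays numbered 2 and 3 alone, LCN2 from day 0 minus vehicle was -0.021 for Mmp8, and LCN2 on day 7 minus vehicle was -0.027 for Ltf, 0.42 for Camp, 0.031 for Mmp8 and -0.0044 for S100a9. On those arrays LCN2 from day 0 minus LCN2 on day 7 was 0.26 for Ngp, -0.10 for Camp, -0.051 for Mmp8, 0.38 for S100a8 and 0.35 for S100a9. Camp, for LCN2 on day 7 minus vehicle, was 0.022 with arrays shifted to a common median and 0.018 with renewed quantile normalization.

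Leaving out each array in turn also moved differences across 0. For LCN2 from day 0 minus vehicle the differences that changed sign ran -0.12 to 0.48 for Camp, -0.12 to 0.52 for Ctsg, -0.13 to 1.09 for Ltf, -0.11 to 0.18 for Mmp8, -0.087 to 1.02 for Mpo, -0.36 to 1.16 for Ngp, -0.10 to 1.06 for S100a8 and -0.40 to 1.08 for S100a9. For LCN2 on day 7 minus vehicle the differences that changed sign ran -0.39 to 0.46 for Camp, -0.28 to 0.12 for Ctsg, -0.37 to 0.57 for Ltf, -0.14 to 0.049 for Mmp8, -0.22 to 0.88 for Mpo, -0.32 to 0.90 for Ngp and -0.28 to 0.83 for S100a9. For LCN2 from day 0 minus LCN2 on day 7 the differences that changed sign ran -0.21 to 0.63 for Camp, -0.044 to 0.59 for Ctsg, -0.12 to 0.67 for Elane, -0.14 to 0.87 for Ltf, -0.070 to 0.22 for Mmp8, -0.23 to 0.52 for Mpo, -0.49 to 0.71 for Ngp, -0.45 to 0.42 for S100a8 and -0.53 to 0.62 for S100a9. For number 2 minus number 3 the differences that changed sign ran -0.51 to 0.43 for Camp, -0.14 to 0.34 for Ltf, -0.46 to 0.17 for Mpo, -0.10 to 0.22 for Ngp, -0.14 to 0.10 for Prtn3, -0.15 to 0.47 for S100a8 and -0.26 to 0.21 for S100a9. For number 1 minus numbers 2 and 3 the difference that changed sign ran -0.66 to 0.096 for Ctsg. For the LCN2 comparisons, leaving out an array of either compared group gave these groups unequal shares of number 1. Leaving out an array of the group not compared kept the shares equal. The number of arrays and the brightness of Ctsg and Camp limit what could be called.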
